A study of Mus musculus with 25 samples.

Results

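The genes described here are 35 genes of glycolysis, glycogen and lactate metabolism, taken by gene name from a table of 54429 entries. The rule matches gene names and no measured value enters it, but the genes were listed with earlier results of these data known. RNA was measured by sequencing in astrocytes of the mouse cortex (strain C57BL/6J) that had been caught on plates coated with an antibody to HepaCAM, an adhesion protein of astrocytes, and then cultured. The 25 libraries form 9 groups. Cells given an inhibitor of the epidermal growth factor receptor (EGFR) from day 2 in vitro gave 3 libraries, as did cells given DMSO in its place. Cells deprived of heparin-binding EGF-like growth factor (HBEGF), a ligand of EGFR, from the day of preparation gave 2 libraries, as did cells with HBEGF. Cells given a P53 inhibitor from day 2 in vitro gave 3 libraries and their own DMSO controls another 3. A further 9 libraries are of cells, with no inhibitor named, from in vitro days 2, 7 and 14, with 3 for each day. The labels name no genetic change in any group. The sources used here do not give the age of the mice, the identity and dose of the inhibitors, the day of harvest of the treated cells or the growth factors in the medium of the DMSO and day groups. Nothing states whether replicates came from separate animals or cultures. A p-value here therefore reflects the spread among these libraries alone, and that spread may be technical.

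Astrocytes take up glucose from the blood side, break it down by glycolysis to pyruvate, and either turn pyruvate into lactate or pass it to the mitochondria. They hold most of the glycogen of the brain, and lactate they release can be used by neurons. Lactate dehydrogenase A (Ldha) favours lactate formation and its partner Ldhb the reverse reaction, while the pyruvate dehydrogenase kinases (Pdk1 to Pdk4) switch off the enzyme complex that admits pyruvate carbon to the tricarboxylic acid (TCA) cycle.

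The astrocyte label was checked against markers: all 10 astrocyte markers were above 0 in every group, with summed levels of 90.9 to 429 RPKM (reads per kilobase of gene, scaled to the depth of the library) per library. Markers of oligodendrocyte precursors were also present, at 92.5 to 510 RPKM per library over 6 genes. These RPKM divide by the whole gene span, so sums over different genes cannot rank the cell types. Summed levels stayed at or below 6.67 RPKM for 10 neuron markers and at or below 25.5 RPKM for 10 microglia markers. Since these are bulk samples, fewer cells of a type and less RNA per cell cannot be told apart. Each library held 4012357 to 9698570 counted reads. Mitochondrial ribosomal RNA took 12.3 to 29.7% of them.

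Promoter sequence is shown for 5 genes: 3 that fell with the EGFR inhibitor and after HBEGF withdrawal (Ldha, Pgk1 and Hk2) and 2 that rose in both (Pdk4 and Pygb). Each line is the 250 bases before a RefSeq start of the gene, GRCm38.p6, 5′ to 3′ on the strand of the gene. Ldha has 2 RefSeq starts: the window of the upstream one is shown, with 5 matches to ACGTG and 0 to GCGTG, whereas that of the other (chr7:46846832-46847081, not shown) has 0 and 1. Capitals mark 3 motifs searched on both strands: ACGTG and GCGTG, the core letters bound by hypoxia-inducible factors, and CACGTG, the E-box, which contains ACGTG. An E-box reads the same on both strands, so each of the 2 in the Ldha window counts as 2 matches to ACGTG. The 5 matches in that window therefore lie at fewer places. The windows are chr7:46845554-46845803 (plus strand) for Ldha, chrX:106186850-106187099 (plus) for Pgk1, chr6:82774455-82774704 (minus) for Hk2, chr6:5496279-5496528 (minus) for Pdk4 and chr2:150786546-150786795 (plus) for Pygb.
Ldha: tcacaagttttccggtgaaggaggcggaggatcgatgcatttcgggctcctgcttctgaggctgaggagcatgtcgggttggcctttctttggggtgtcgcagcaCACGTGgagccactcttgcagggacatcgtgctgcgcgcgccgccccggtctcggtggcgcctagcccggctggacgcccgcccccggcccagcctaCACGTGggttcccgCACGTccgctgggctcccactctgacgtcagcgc
Pgk1: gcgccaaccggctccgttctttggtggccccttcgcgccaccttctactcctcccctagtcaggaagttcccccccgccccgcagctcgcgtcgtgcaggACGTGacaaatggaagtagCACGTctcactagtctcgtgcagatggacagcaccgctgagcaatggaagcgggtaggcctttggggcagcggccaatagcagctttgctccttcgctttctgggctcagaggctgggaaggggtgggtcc
Hk2: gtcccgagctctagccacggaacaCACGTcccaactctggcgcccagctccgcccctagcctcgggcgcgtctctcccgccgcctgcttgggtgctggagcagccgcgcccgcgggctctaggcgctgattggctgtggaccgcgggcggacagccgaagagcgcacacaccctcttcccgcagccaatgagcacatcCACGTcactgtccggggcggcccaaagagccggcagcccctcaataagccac
Pdk4: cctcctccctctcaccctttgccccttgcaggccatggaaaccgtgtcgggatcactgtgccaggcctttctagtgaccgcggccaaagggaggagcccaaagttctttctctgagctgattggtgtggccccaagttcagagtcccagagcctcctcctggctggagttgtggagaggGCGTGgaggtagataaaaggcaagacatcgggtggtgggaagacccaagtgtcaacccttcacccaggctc
Pygb: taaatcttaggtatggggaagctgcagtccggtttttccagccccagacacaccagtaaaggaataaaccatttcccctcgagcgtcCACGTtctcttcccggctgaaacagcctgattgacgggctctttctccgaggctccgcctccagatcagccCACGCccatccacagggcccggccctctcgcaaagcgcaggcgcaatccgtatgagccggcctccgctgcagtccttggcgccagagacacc

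A window was found for 34 of the 35 genes, 50 windows in all, since some genes have several starts. ACGTG stood in 42% of the 50 windows, against 16.6% of 32851 windows of all RefSeq genes of the mouse. GCGTG stood in 54% of them against 28.2% of all, and the E-box in 12% against 6.02%. A motif bound by FoxO factors, TGTTTAC, was in 0 of the 50 windows and in 3.17% of all. By direction, ACGTG was in a window of 4 of the 9 genes that were higher in both the EGFR inhibitor and HBEGF withdrawal groups, and in a window of 4 of the 8 that were lower in both. GCGTG was in a window of 7 of the 9 higher genes and 4 of the 8 lower genes, and the E-box in 2 of the 9 and 1 of the 8. These counts were not tested, and genes differ in their number of windows. These matches describe letters, not binding.

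Levels of different genes were compared on an exon-length scale (RPKM per kilobase of exon), because the deposited RPKM divide by the whole gene span. The length merges all annotated exons of a gene and can far exceed its longest coding transcript. It was 8532 against 4278 bases for Hk1, 5969 against 5513 for Hk2, 13401 against 4145 for Pfkp and 4133 against 1420 for Gapdh. The order of genes can therefore depend on the length used. By the median over 25 libraries, Ldha had the highest level at 86.9, followed by Aldoa (aldolase A) at 76.6, Ldhb at 70.5, Pkm (pyruvate kinase) at 57.2 and Pygb at 37.0. This order differed between groups. With the EGFR inhibitor the group means were 120 for Pygb, 104 for Ldhb and 67.7 for Aldoa, with Ldha at 20.45. After HBEGF withdrawal they were 92.2 for Aldoa, 90.9 for Ldhb and 82.5 for Pygb, with Ldha at 30.9. On this scale Aldoa led on day 7 and Ldhb on day 14, and Ldha had the highest mean in the other groups. Pygb, the brain form of glycogen phosphorylase, far exceeded the muscle form Pygm, at 0.676. Among the enzymes with several forms, Hk1 (hexokinase 1) at 5.87 stood above Hk2 at 2.11, Pfkm (muscle-type phosphofructokinase) at 16.0 above Pfkp at 4.19 and Pfkl at 3.21, and Eno1 (enolase 1) at 17.3 above Eno2 at 1.11. On this scale the hexokinases stood the other way round in the 3 day 2 libraries and HBEGF replicate 1, where Hk2 was 1.03 to 1.53 times Hk1. That reversal rests on the length used. Mean reads on day 2 were 309 for Hk1 and 262 for Hk2, so per base of the longest coding transcript Hk1 stays higher. The lactate carrier Slc16a1 (MCT1) had 7.95, while Slc16a7 (MCT2) and Slc16a3 (MCT4) had 0.352 and 0.279. Slc16a3 was counted with 1 to 20 reads per library. Gapdh, a glycolytic enzyme often used as a loading control, had only 2.64. It has 75 near copies in the annotation, which together held 3484 reads over all libraries, against 1857 in the gene itself, so its level is uncertain.

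Of the 35 genes, 25 passed the filter of at least 1 RPKM in at least 2 libraries and were tested with limma on log2(RPKM + 1). The 10 below it were Hk1, Hk2, Pfkfb2, Pfkfb4, Pgam1, Slc16a3, Slc16a7, Mpc1, Pdk3 and Pygm. Pfkfb3 (5 libraries) and Pdk1 (4) passed it only through libraries of the EGFR inhibitor and HBEGF withdrawal groups. Eno2 passed in 5, all of those groups but day 7 replicate 3. Hk2, low in both groups, reached 1 RPKM in 1 library. The counts of higher genes in these 2 comparisons, and of genes shared by both, therefore depend in part on the filter. A call is a Benjamini-Hochberg adjusted p below 0.05 over all 13848 genes tested. The log2(RPKM + 1) scale understates the change of genes with low values. Values below are RPKM per gene span, mean ± SD, and log2 changes are ± SE.

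**Figure D1:**
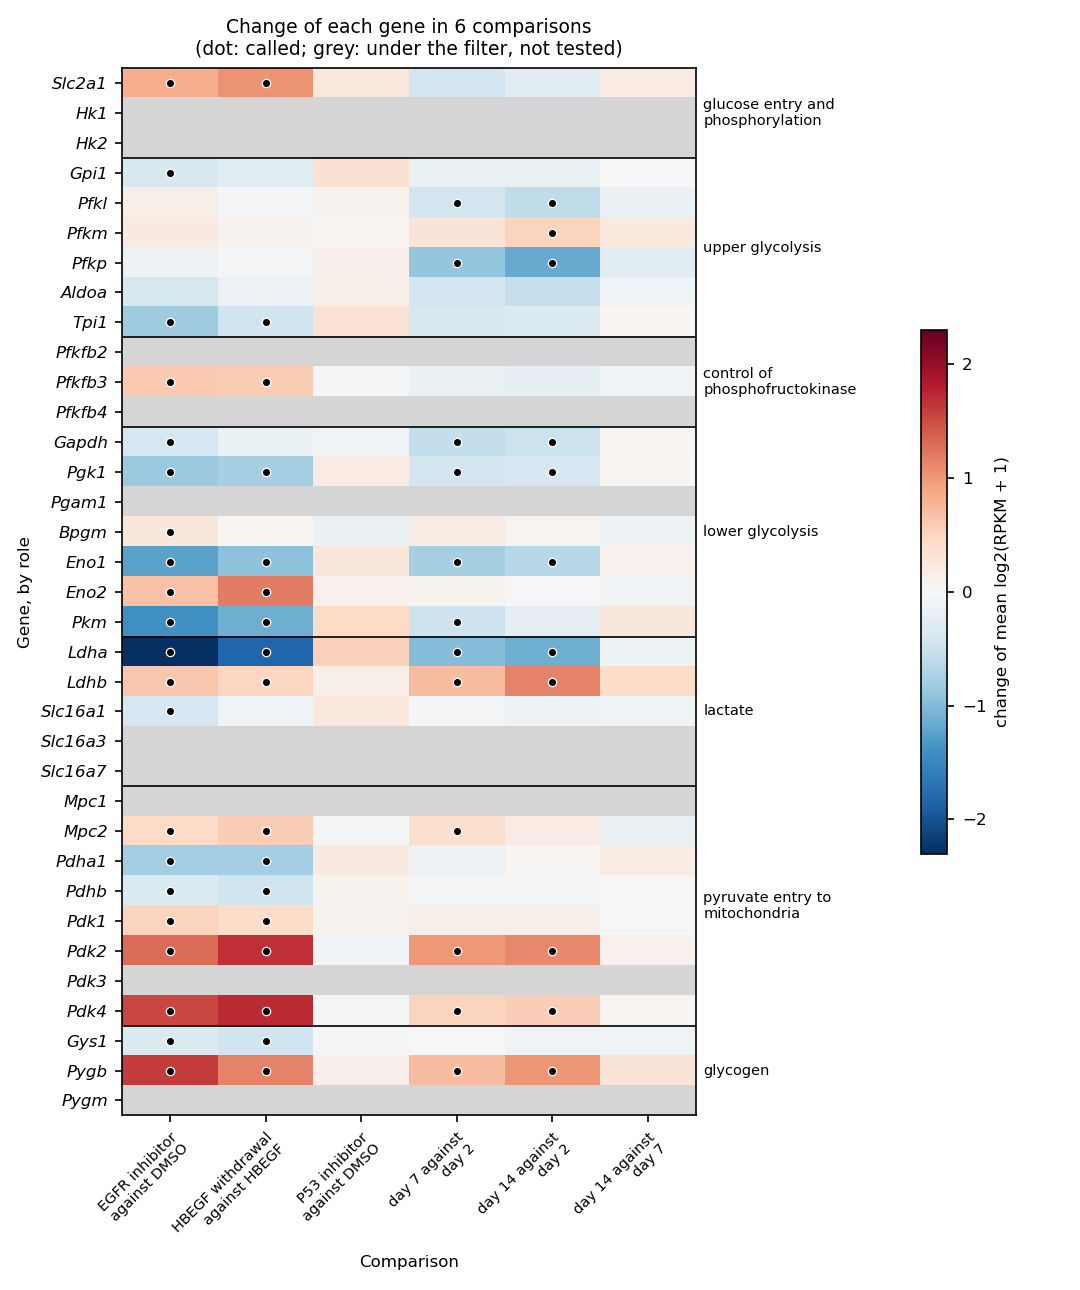
Colour gives the change of mean log2(RPKM + 1) of each gene (rows, grouped by role) in 6 comparisons (columns). Red is higher in the group named before "against", black dots mark called genes and grey rows are the 10 genes under the filter. The EGFR inhibitor and HBEGF withdrawal columns hold 21 and 17 dots, and the P53 inhibitor and day 14 against day 7 columns hold 0.

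With the EGFR inhibitor, the cells had much less Ldha and less RNA of most enzymes between triose phosphate and lactate, and more RNA of glycogen phosphorylase Pygb, the glucose carrier Slc2a1 and 3 of the pyruvate dehydrogenase kinases. Of the 25 tested genes, 10 were higher and 11 lower than with DMSO. Over all 13848 genes 38.5% were called, 16.3% higher and 22.2% lower. The median change of the 25 genes was -0.11, against -0.02 for all genes tested. After median-of-ratios scaling, 11 were higher and 9 lower (19.9% and 19.0% of all genes). Over 2354 genes averaging 5 RPKM or more, the median change was -0.22 after this scaling and -0.33 as deposited. Mitochondrial ribosomal RNA took 23.3 ± 1.77% of reads with the inhibitor and 18.6 ± 0.235% with DMSO (SD, n = 3 each).

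At the lactate step, Ldha had 4.62, 4.78 and 4.95 RPKM with the EGFR inhibitor, against 26.1, 27.7 and 28.1 RPKM with DMSO. The groups lay far apart, with little spread within either. Ldha fell by 2.29 ± 0.15 on the log2 scale (limma, adjusted p = 6.82e-09), and its mean was 5.71-fold lower. Ldhb moved the other way, with 9.67, 9.37 and 8.53 RPKM with the inhibitor against 4.82, 5.90 and 6.32 RPKM with DMSO. Every inhibitor library was above every DMSO library (log2 change 0.61 ± 0.15, adjusted p = 0.00271). The ratio of Ldha to Ldhb within a library, per exon length, does not depend on library scaling. It was 0.181, 0.193 and 0.220 with the inhibitor and 2.05, 1.78 and 1.69 with DMSO, so Ldhb was the more abundant form with the inhibitor and Ldha with DMSO. The carrier Slc16a1 was lower, at 1.46 ± 0.234 RPKM with the inhibitor and 2.23 ± 0.256 RPKM with DMSO (adjusted p = 0.00481).

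**Figure D2:**
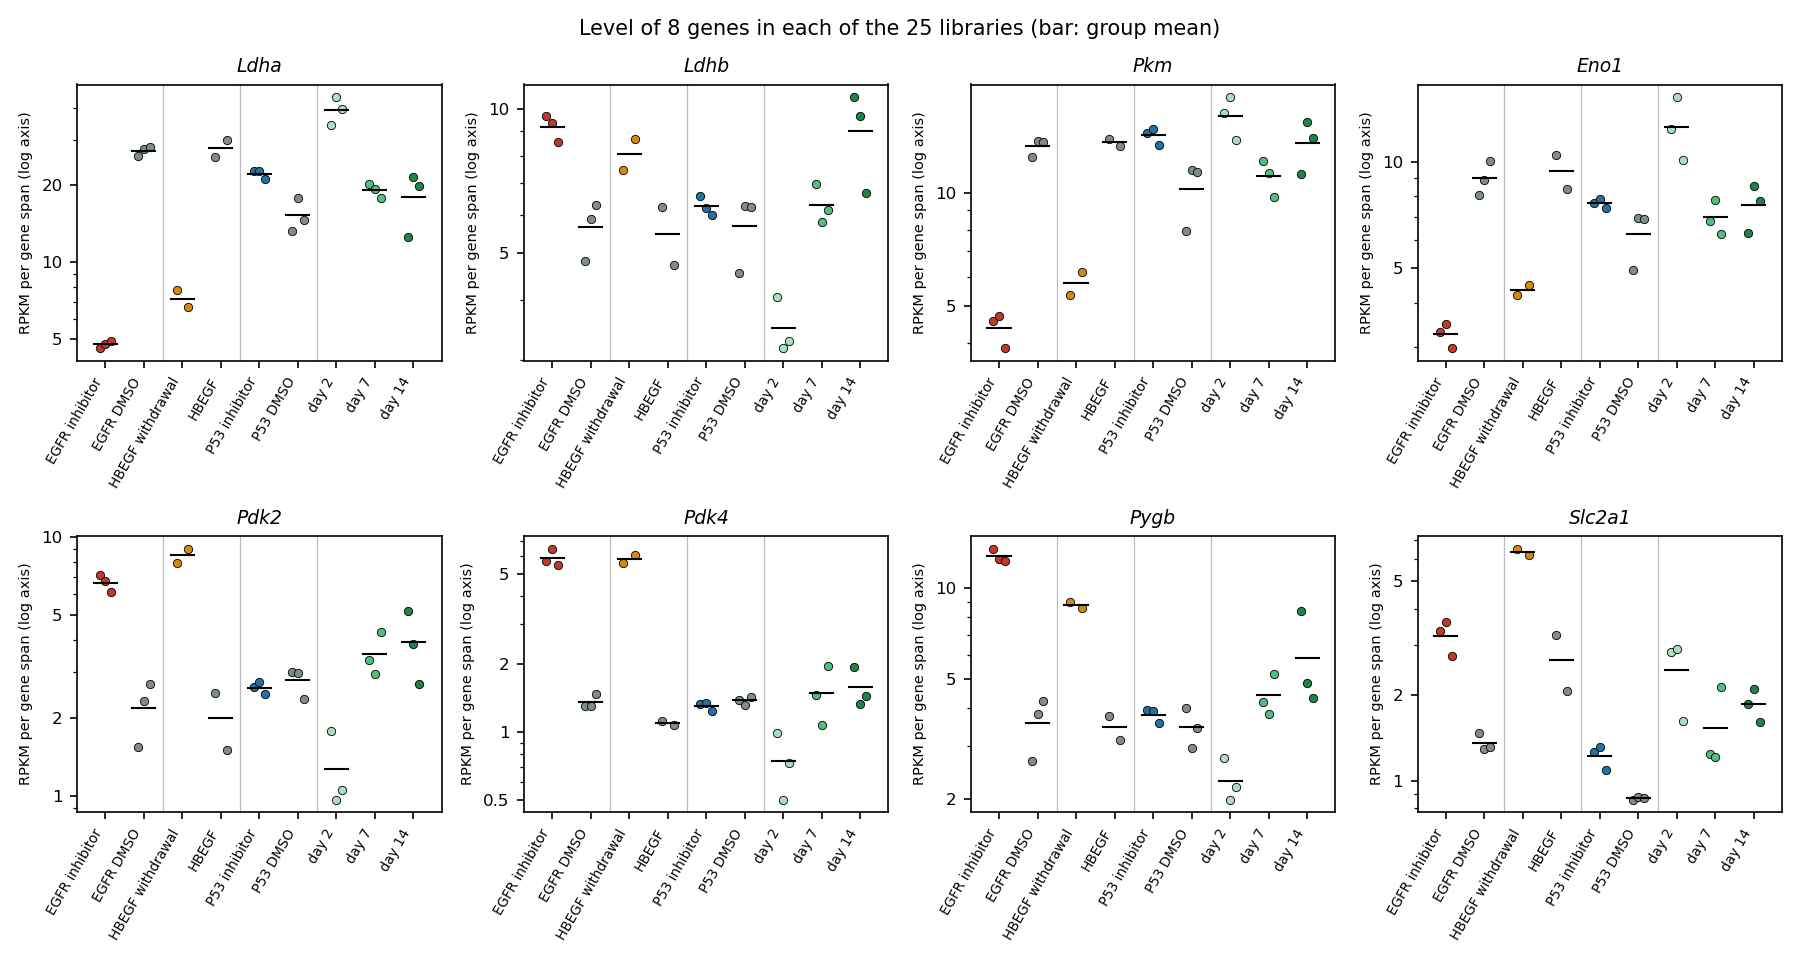
Points are RPKM per gene span (log axis) of 8 genes in every library, bars are group means, and grey lines separate the 4 experiments. Ldha is near 5 RPKM in the 3 EGFR inhibitor libraries and above 26 RPKM in their DMSO controls, while Pdk2, Pdk4 and Pygb run the other way. The P53 inhibitor and its control overlap for Ldhb, Pdk2, Pdk4 and Pygb. For Ldha, Pkm, Eno1 and Slc2a1 the P53 inhibitor libraries lie above the control, but none of these genes was called.

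Of 6 tested genes of lower glycolysis, 4 were lower and 2 higher. Pkm, which makes pyruvate, had 4.57, 4.72 and 3.87 RPKM with the EGFR inhibitor, against 12.4, 13.8 and 13.7 RPKM with DMSO (log2 change -1.41 ± 0.13, adjusted p = 4.36e-07). Eno1 had 3.31, 3.49 and 2.98 RPKM with the inhibitor, against 8.06, 8.88 and 10.0 RPKM with DMSO (log2 change -1.23 ± 0.14, adjusted p = 2.94e-06). Neither gene's groups overlapped. Pgk1 (phosphoglycerate kinase) was lower too, at 0.620 ± 0.0392 RPKM with the inhibitor and 1.92 ± 0.181 RPKM with DMSO (adjusted p = 3.68e-06). Tpi1 (triose phosphate isomerase), Gpi1 (glucose phosphate isomerase) and Gapdh were lower by 0.82, 0.37 and 0.41 on the log2 scale, with adjusted p of 0.000122, 0.0123 and 0.0356, and the call for Gapdh was lost after scaling (adjusted p = 0.0807). Eno2, the enolase known for its high level in neurons, was higher: 1.36, 1.51 and 0.955 RPKM with the inhibitor, against 0.542, 0.374 and 0.329 RPKM with DMSO (log2 change 0.68 ± 0.14, adjusted p = 0.000925). Bpgm (bisphosphoglycerate mutase) was the other gene of lower glycolysis called higher, with overlapping groups (log2 change 0.26 ± 0.10, adjusted p = 0.0428). The phosphofructokinases Pfkl, Pfkm and Pfkp and aldolase Aldoa were not called, although Pfkm passed after scaling, as a higher gene (adjusted p = 0.0406).

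At the entry of glucose, Slc2a1 (GLUT1), the carrier that brings glucose in, had 3.36, 3.59 and 2.74 RPKM with the EGFR inhibitor, against 1.47, 1.29 and 1.32 RPKM with DMSO (log2 change 0.84 ± 0.15, adjusted p = 0.000284). Pfkfb3, which makes the activator of phosphofructokinase, was also higher, at 1.25 ± 0.0717 RPKM with the inhibitor and 0.492 ± 0.0603 RPKM with DMSO (adjusted p = 5.18e-05). Hk2, an inducible hexokinase, lay under the filter. Its counted reads were 13, 17 and 29 with the inhibitor and 130, 126 and 182 with DMSO. In voom on reads recovered from the RPKM, chosen after seeing the data so that genes under the filter could be tested, Hk2 was lower by 2.67 ± 0.46 on the log2 scale (adjusted p = 2.81e-05), while Hk1 gave -0.03 ± 0.15 (adjusted p = 0.913). That fit called 23 of all 35 genes, 11 higher and 12 lower, beside 33.6% of the 25834 genes in it. Of the genes under the filter it called Pfkfb2 higher and Hk2 and Pdk3 lower. It did not call Hk1, the control enzyme Pfkfb4, phosphoglycerate mutase Pgam1, the carriers Slc16a3 and Slc16a7, the carrier subunit Mpc1 or Pygm.

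At the entry of pyruvate to the mitochondria, RNA of the inhibitory kinases Pdk1, Pdk2 and Pdk4 was higher and RNA of 2 subunits of the enzyme they act on was lower. The remaining kinase, Pdk3, lay under the filter, and voom called it lower, with 0.106 ± 0.0389 RPKM with the EGFR inhibitor and 0.205 ± 0.0254 RPKM with DMSO (SD, n = 3 each, adjusted p = 0.00108). Pdk4 had 5.71, 6.5 and 5.48 RPKM with the EGFR inhibitor, against 1.30, 1.31 and 1.47 RPKM with DMSO (log2 change 1.54 ± 0.12, adjusted p = 3.75e-08). Pdk2 had 7.12, 6.74 and 6.13 RPKM with the inhibitor, against 1.54, 2.31 and 2.70 RPKM with DMSO (log2 change 1.28 ± 0.18, adjusted p = 2.93e-05). For both kinases every inhibitor library lay far above every DMSO library. Pdk1 was higher as well (log2 change 0.52 ± 0.09, adjusted p = 0.000274), and so was Mpc2, a subunit of the mitochondrial pyruvate carrier (log2 change 0.43 ± 0.12, adjusted p = 0.00577). Pdha1 and Pdhb, subunits of the pyruvate dehydrogenase that the kinases act on, were lower. Pdha1 averaged 4.85 ± 0.446 RPKM with the inhibitor and 9.21 ± 1.04 RPKM with DMSO (adjusted p = 2.95e-05), whereas the call for Pdhb (adjusted p = 0.042) was lost after scaling (adjusted p = 0.163).

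In the glycogen group, Pygb, which releases glucose units from glycogen, had 13.5, 12.5 and 12.3 RPKM with the EGFR inhibitor, against 2.67, 3.82 and 4.23 RPKM with DMSO. Its mean was 3.58-fold higher, with no overlap (log2 change 1.61 ± 0.17, adjusted p = 1.53e-06). Gys1, the glycogen synthase outside liver, was lower, at 0.944 ± 0.206 RPKM with the inhibitor and 1.43 ± 0.0667 RPKM with DMSO (adjusted p = 0.0174). Marker sums moved between these groups too. The astrocyte sum was 407 to 429 RPKM with the inhibitor and 134 to 168 RPKM with DMSO, and that of oligodendrocyte precursors 113 to 137 RPKM with the inhibitor and 322 to 418 RPKM with DMSO. A sum follows its largest markers, and not all markers moved with it. Limma called 7 of 10 astrocyte markers higher and 1 lower. Of 6 precursor markers it called 1 higher and 3 lower, with a median change of -0.12. Of 3 tested neuron markers 2 were higher and 1 lower. Over all genes 16.3% were higher and 22.2% lower. The neuron sum was 6.07 to 6.5 RPKM with the inhibitor and 1.11 to 1.92 RPKM with DMSO, and the microglia sum 2.17 to 5.17 RPKM with the inhibitor and 0.433 to 0.778 RPKM with DMSO. In the DMSO group Dlx5 (neuron) and Tmem119 and Itgam (microglia) were at 0, and in the inhibitor group Tmem119. Their part in the results was not tested. Some of the weaker calls rested on single libraries. With 1 library left out, Pdhb lost its call whichever of the 6 it was, Bpgm without any of them but inhibitor replicate 3, Gapdh without inhibitor or DMSO replicate 1 or 2, and Gys1 without inhibitor or DMSO replicate 3.

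Withdrawal of HBEGF, an experiment that shares no library with the first, also went with less Ldha, Pkm and Eno1 and with more Pdk4, Pdk2, Pygb, Slc2a1 and Eno2. Of the 25 tested genes, 9 were higher and 8 lower than with HBEGF. Over all 13848 genes 32.6% were called, 10.0% higher and 22.5% lower. The median change of the 25 genes was -0.03, against -0.10 for all genes tested. After scaling, 9 were higher and 6 lower (15.5% and 14.4% of all genes), and the median change of the 2354 genes was -0.22, against -0.45 as deposited. The voom fit without the filter called 9 of the 35 higher and 8 lower, beside 26.9% of its genes. With 2 libraries a group, the calls lean on the spread of all 9 groups: fitted on its own 4 libraries, limma called 0 of 13848 genes, and 3925 had an unadjusted p below 0.05. The count of lower genes was 5 without withdrawal replicate 2 and 5 without HBEGF replicate 1. Tpi1 lost its call without any of the 4 libraries, Ldhb without either withdrawal library or HBEGF replicate 2, Pdhb without withdrawal replicate 2 or either HBEGF library, Gys1 without withdrawal replicate 2 or HBEGF replicate 1, Pdk1 without withdrawal replicate 1 or HBEGF replicate 2, and Mpc2 without HBEGF replicate 2.

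Ldha had 7.77 and 6.67 RPKM after HBEGF withdrawal, against 25.9 and 30.1 RPKM with HBEGF. The groups lay far apart, and the mean was 3.88-fold lower after withdrawal (log2 change -1.82 ± 0.18, adjusted p = 1.3e-06). The ratio of Ldha to Ldhb per exon length was 0.394 and 0.292 after withdrawal and 1.57 and 2.41 with HBEGF, so the more abundant form differed here as well. Ldhb averaged 8.06 ± 0.836 RPKM after withdrawal and 5.49 ± 1.07 RPKM with HBEGF (SD, n = 2 each, limma adjusted p = 0.045). Pkm had 5.36 and 6.17 RPKM after withdrawal, against 13.9 and 13.4 RPKM with HBEGF (log2 change -1.12 ± 0.16, adjusted p = 5.21e-05). Eno1 and Pgk1 were lower by 0.95 ± 0.17 and 0.76 ± 0.12 on the log2 scale (adjusted p = 0.00037 and 0.000127). Tpi1 was lower at an adjusted p of 0.0462, which was 0.282 after scaling. Pdhb was lower at an adjusted p of 0.025, which was 0.271 after scaling.

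Eno2 had 2.23 and 2.73 RPKM after HBEGF withdrawal, against 0.588 and 0.476 RPKM with HBEGF. Its mean was 4.65-fold higher (log2 change 1.18 ± 0.17, adjusted p = 5.43e-05). Within libraries, Eno2 was 0.478 and 0.549 times Eno1 per exon length after withdrawal and 0.0510 and 0.0515 times Eno1 with HBEGF. Slc2a1 had 6.53 and 6.21 RPKM after withdrawal, against 3.26 and 2.06 RPKM with HBEGF (log2 change 1.03 ± 0.19, adjusted p = 0.000377). Hk2 reads numbered 54 and 13 after withdrawal and 259 and 119 with HBEGF (voom log2 change -2.38 ± 0.49, adjusted p = 0.000413). The neuron marker sum, to set beside Eno2, was 5.68 to 6.67 RPKM after withdrawal and 1.53 to 4.29 RPKM with HBEGF, with Slc17a7 at 0 in both groups.

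**Figure D3:**
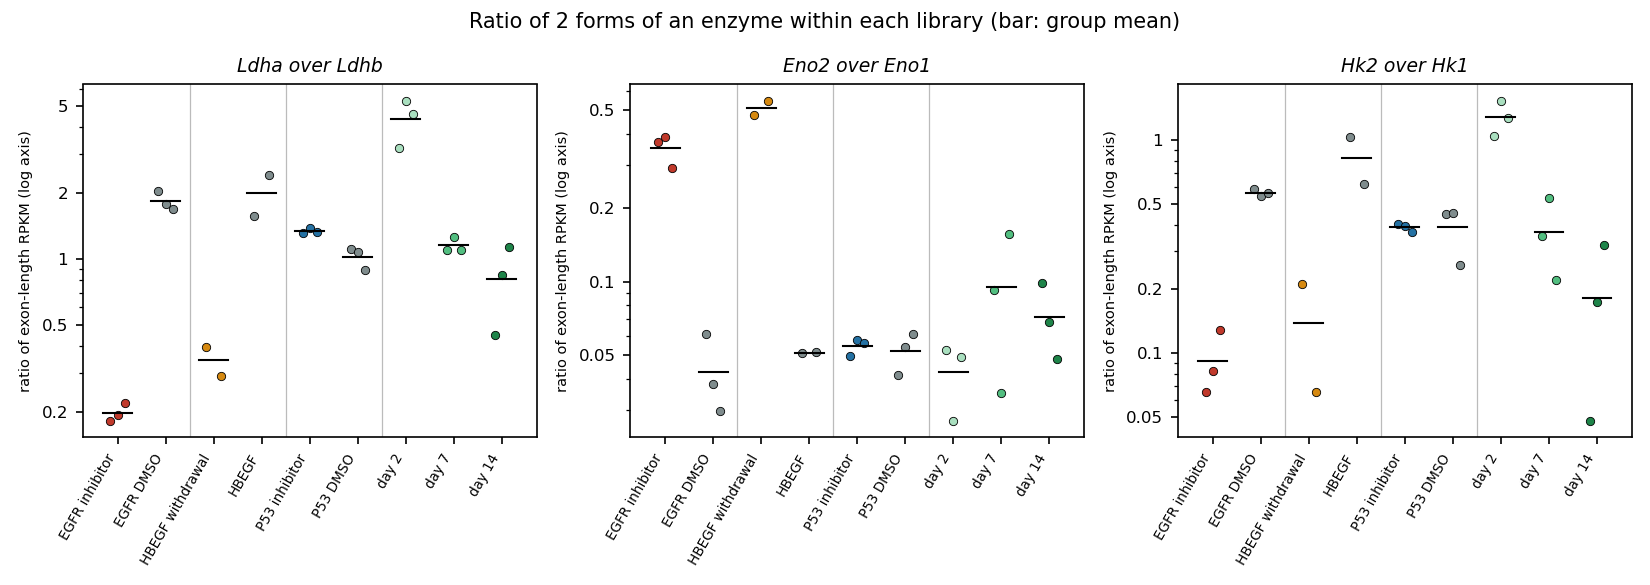
Points are ratios of exon-length RPKM within a library (log axis) for 3 pairs of enzyme forms, with bars at group means. Ldha over Ldhb averaged 0.198 with the EGFR inhibitor and 1.84 with DMSO, 0.343 after HBEGF withdrawal and 1.99 with HBEGF, and 4.36, 1.15 and 0.805 on days 2, 7 and 14. Eno2 over Eno1 is high in the EGFR inhibitor and withdrawal groups. Hk2 over Hk1 is low in these groups (means 0.092 and 0.139) and also on day 14 (0.181).

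Among the kinases, Pdk4 had 5.62 and 6.09 RPKM after HBEGF withdrawal, against 1.12 and 1.07 RPKM with HBEGF (log2 change 1.71 ± 0.14, adjusted p = 2.27e-07). Pdk2 had 7.94 and 9.02 RPKM after withdrawal, against 2.5 and 1.5 RPKM with HBEGF (log2 change 1.68 ± 0.23, adjusted p = 2.27e-05). Pdk2 per exon length was 2.68 ± 0.00355 times its substrate subunit Pdha1 after withdrawal and 0.339 ± 0.167 times with HBEGF (SD, n = 2 each). Pdha1 fell by 0.78 ± 0.14 on the log2 scale (adjusted p = 0.000346). Pygb had 9.0 and 8.62 RPKM after withdrawal, against 3.76 and 3.15 RPKM with HBEGF (log2 change 1.14 ± 0.21, adjusted p = 0.000459), and Gys1 fell by 0.46 ± 0.13 (adjusted p = 0.00912). In these libraries the astrocyte marker sum was 303 to 339 RPKM after withdrawal and 144 to 151 RPKM with HBEGF. Of the 10 astrocyte markers, limma called 5 higher and 2 lower, and of the 6 precursor markers 0 higher and 3 lower. Over all genes 10.0% were higher and 22.5% lower. The microglia sum was 11.8 to 25.5 RPKM after withdrawal, with Tmem119 at 0, and 0.0433 to 0.235 RPKM with HBEGF, with Cx3cr1, Aif1, Tmem119, C1qa and Itgam at 0. The mature oligodendrocyte sum was 26.8 to 29.3 RPKM after withdrawal and 8.65 to 17.6 RPKM with HBEGF, and that of their precursors 92.5 to 98.7 RPKM after withdrawal and 391 to 418 RPKM with HBEGF. The mitochondrial ribosomal share was 28.8 ± 1.29% of reads after withdrawal and 17.7 ± 0.747% with HBEGF. Their part in the results was not tested.

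All 17 genes called after HBEGF withdrawal were called in the same direction with the EGFR inhibitor, and they are 81% of the 21 called there. Over all tested genes, 71% of the 4510 withdrawal calls and 60% of the 5336 inhibitor calls were shared in this way. Among the 17, Pfkfb3 and Pdk1 passed the filter only through libraries of the EGFR inhibitor and withdrawal groups, and Eno2 mainly through them. The shared count therefore depends in part on the filter. Gpi1, Gapdh, Bpgm and Slc16a1 were called with the inhibitor and not after withdrawal. The difference between the changes in the 2 experiments was tested in the same fit. Of the 25 genes limma called 0 (voom 0 of 35), while 1.83% of all genes were called, 1.27% higher and 0.556% lower. At an unadjusted p below 0.05 there was 1 of the 25, beside 2189 of all 13848. Eno2 had the smallest p, with a difference of -0.50 ± 0.22 (inhibitor change minus withdrawal change, adjusted p = 0.282). The difference was -0.47 ± 0.23 for Ldha and 0.47 ± 0.27 for Pygb, with adjusted p of 0.333 and 0.433. A difference that misses the threshold does not show that the effects were of equal size.

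**Figure D4:**
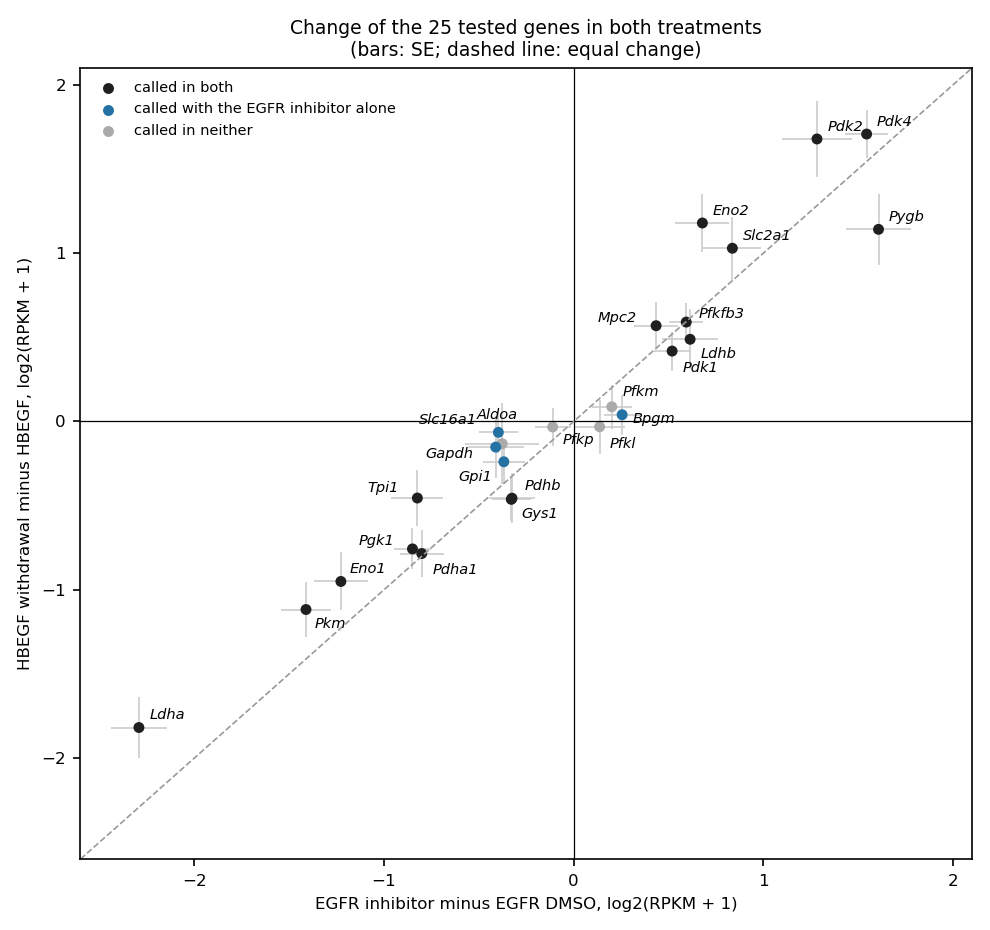
Each point is 1 of the 25 tested genes, placed by its log2(RPKM + 1) change with the EGFR inhibitor (x axis) and after HBEGF withdrawal (y axis), with SE bars. The 17 genes called in both lie in the lower left and upper right, from Ldha at -2.29 and -1.82 to Pdk4 at 1.54 and 1.71.

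None of these genes passed the threshold with the P53 inhibitor. Limma called 0 of the 25 tested genes, beside 0.181% of all genes (0.0289% higher and 0.152% lower), and voom called 0 of all 35, beside 0.403% of its genes. At an unadjusted p below 0.05 there were 5 of the 25, beside 1128 of all 13848 genes tested. All 5 were higher with the inhibitor: Ldha, Pkm, Gpi1, Tpi1 and Slc16a1. Ldha had 22.8, 22.7 and 21.1 RPKM with the P53 inhibitor, against 13.3, 17.8 and 14.6 RPKM with DMSO. The groups did not overlap, but the change of 0.52 ± 0.15 did not pass the adjustment (adjusted p = 0.194). Pkm had 14.5, 14.8 and 13.4 RPKM with the P53 inhibitor, against 7.93, 11.5 and 11.4 RPKM with DMSO (log2 change 0.45 ± 0.13, adjusted p = 0.224). Pdk4 had 1.33, 1.34 and 1.24 RPKM with the P53 inhibitor, against 1.39, 1.32 and 1.44 RPKM with DMSO, and the groups overlapped. The median change of the 25 genes was 0.11, against -0.01 for all genes tested.

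Over days 2, 7 and 14 in culture, Ldha, the phosphofructokinase form Pfkp and Hk2 were highest on day 2, and Ldhb, Pygb and the kinases Pdk2 and Pdk4 were lowest on it. The comparisons of days share libraries. On day 7 against day 2, 5 of the 25 genes were higher and 7 lower, beside 4.12% and 9.59% of all genes (13.7% in all). On day 14 against day 2, 5 were higher and 6 lower, beside 5.55% and 17.6% (23.2% in all). After scaling these counts were 6 and 6 on day 7 (4.81% and 5.51% of all genes) and 5 and 4 on day 14 (8.63% and 8.38%). The median change of the 2354 genes on day 14 against day 2 was -0.02 after scaling and -0.20 as deposited. The voom fit without the filter called 15 of the 35 on day 7, 5 higher and 10 lower, and 6 higher and 8 lower on day 14, beside 10.3% and 18.6% of its genes. Without day 2 replicate 2 the day 7 counts were 3 and 3, and without day 7 replicate 3 the higher count was 3. On day 7 the calls lost without day 2 replicate 2 were those of Gapdh, Mpc2, Pfkl, Pgk1, Pkm and Pygb, and without day 7 replicate 3 those of Mpc2, Pgk1, Pkm and Pygb. Other single libraries ended the day 7 calls of Gapdh (day 2 replicate 1, day 7 replicates 1 and 2), Pfkl (day 2 replicate 3, day 7 replicates 1 and 2), Mpc2 (day 2 replicate 3, day 7 replicate 2) and Pkm (day 2 replicate 1).

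Ldha had 34.4, 44.3 and 39.6 RPKM on day 2, 20.3, 19.3 and 17.9 RPKM on day 7, and 12.6, 21.5 and 19.9 RPKM on day 14. Every day 2 library was above every later one. The change was -0.998 ± 0.147 on day 7 against day 2 (adjusted p = 0.000284) and -1.12 ± 0.15 on day 14 against day 2 (adjusted p = 4.44e-05). Ldhb had 4.06, 3.17 and 3.27 RPKM on day 2, 6.98, 5.80 and 6.17 RPKM on day 7, and 10.6, 9.69 and 6.69 RPKM on day 14. Its change was 0.70 ± 0.15 on day 7 against day 2 (adjusted p = 0.00452) and 1.13 ± 0.15 on day 14 against day 2 (adjusted p = 3.65e-05). The ratio of Ldha to Ldhb per exon length was 3.21, 5.29 and 4.59 on day 2, 1.10, 1.26 and 1.10 on day 7, and 0.449, 0.840 and 1.13 on day 14. Day 14 replicate 1 had the lowest Ldha and the highest Ldhb of its day. Without it the day 14 changes were -0.89 for Ldha and 1.02 for Ldhb, both still called.

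Pfkp, the platelet form of phosphofructokinase, had 2.46, 2.20 and 1.80 RPKM on day 2, 0.633, 0.473 and 1.0 RPKM on day 7, and 0.384, 0.375 and 0.464 RPKM on day 14. It changed by -0.90 ± 0.09 on day 7 against day 2 (adjusted p = 1.65e-05) and by -1.16 ± 0.09 on day 14 against day 2 (adjusted p = 2.4e-07). Pfkm rose on day 14 against day 2 (log2 change 0.52 ± 0.11, adjusted p = 0.00175) and Pfkl fell (log2 change -0.58 ± 0.13, adjusted p = 0.00375). Within libraries, Pfkp over Pfkm per exon length was 0.774 ± 0.0950 on day 2, 0.172 ± 0.0318 on day 7 and 0.0850 ± 0.0304 on day 14 (SD, n = 3 each). Which form is higher depends on the length used. Mean reads on day 2 were 960 for Pfkp and 298 for Pfkm. Per base of the longest coding transcript (4145 and 2879 bases), Pfkp was therefore the higher form on day 2. The fall of the ratio between days does not depend on the length. Whether the EGFR inhibitor and HBEGF withdrawal differ from the days in these forms was not tested. Hk2 reads were 359, 248 and 178 on day 2, 109, 86 and 46 on day 7, and 14, 59 and 65 on day 14. Voom gave Hk2 a change of -1.63 ± 0.28 on day 7 against day 2 (adjusted p = 0.000196) and -2.92 ± 0.35 on day 14 against day 2 (adjusted p = 3.05e-07).

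Pdk2 had 1.78, 0.966 and 1.06 RPKM on day 2, 3.34, 2.95 and 4.29 RPKM on day 7, and 5.17, 3.87 and 2.71 RPKM on day 14. All later libraries were above all of day 2 (adjusted p = 0.00173 on day 7 and 0.000346 on day 14, both against day 2). Pygb had 2.73, 1.99 and 2.19 RPKM on day 2, 4.20, 3.83 and 5.21 RPKM on day 7, and 8.43, 4.84 and 4.33 RPKM on day 14. It changed by 0.71 ± 0.17 on day 7 against day 2 (adjusted p = 0.0113) and by 1.02 ± 0.17 on day 14 against day 2 (adjusted p = 0.000408). Pdk4 was higher on days 7 and 14 than on day 2, by 0.51 ± 0.12 and 0.57 ± 0.12 (adjusted p = 0.00691 and 0.00163). Eno1 and Pgk1 were lower on both later days than on day 2, with Eno1 at 12.6 ± 2.56, 6.97 ± 0.787 and 7.54 ± 1.15 RPKM on days 2, 7 and 14. The day 14 call for Pgk1 was lost after scaling (adjusted p = 0.101), without day 14 replicate 1 and without day 2 replicate 2. Gapdh was called lower on both later days, and on day 14 the call was lost after scaling (adjusted p = 0.117), without day 14 replicate 1 and without day 2 replicate 1 or 2. Pfkl was called lower on day 7 too, but not after scaling (adjusted p = 0.0722). Pkm was called lower on day 7 against day 2 (adjusted p = 0.0208) and Mpc2 higher (adjusted p = 0.0427), but neither on day 14.

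Between day 14 and day 7 limma called 0 of the 25 genes, beside 0.137% of all genes (0.0505% higher and 0.0867% lower), and voom called 0 of 35, beside 0.321% of its genes. At an unadjusted p below 0.05 there were 2 of the 25, beside 1483 of all 13848 genes tested. They were Ldhb (log2 change 0.43 ± 0.15, adjusted p = 0.283) and Pfkp (log2 change -0.26 ± 0.09, adjusted p = 0.31). Of the 11 genes called on day 14 against day 2, 8 were called in the same direction with the EGFR inhibitor (72.7% of the day calls and 38.1% of the inhibitor calls), against 61.5% and 37.0% over all tested genes. None of the 11 was called the opposite way, beside 182 of the 3209 day 14 calls over all tested genes. The astrocyte marker sum also differed between days, at 90.9 to 123 RPKM on day 2, 147 to 201 RPKM on day 7 and 159 to 259 RPKM on day 14. The neuron sum was 3.26 to 3.49 RPKM on day 2, 0.812 to 4.04 RPKM on day 7 and 0.651 to 1.34 RPKM on day 14, where Slc17a7 and Dlx5 were at 0. The microglia sum was lower on the later days, at 0.757 to 2.28 RPKM on day 2, 0.207 to 0.546 RPKM on day 7 and 0.147 to 0.221 RPKM on day 14, with Tmem119 and C1qa at 0 on all 3 days. Mitochondrial ribosomal RNA took 14.5 ± 1.99%, 19.2 ± 0.258% and 21.7 ± 1.92% of reads on days 2, 7 and 14. Their part in the results was not tested.

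Other genes of carbon metabolism were counted from lists written with earlier results of these data known. Each count stands against the shares of all tested genes: 16.3% higher and 22.2% lower with the EGFR inhibitor, 10.0% and 22.5% after HBEGF withdrawal, and 5.55% and 17.6% on day 14 against day 2. After scaling these shares were 19.9% and 19.0%, 15.5% and 14.4%, and 8.63% and 8.38%. Of 19 tested TCA cycle genes, 0 were higher and 16 lower with the EGFR inhibitor, and 0 were higher and 14 lower after HBEGF withdrawal. After scaling, 16 were lower with the inhibitor and 10 after withdrawal. Their median change was -0.50 with the inhibitor, where that of all genes was -0.02, and -0.47 after withdrawal, where that of all genes was -0.10. Over the 2354 genes averaging 5 RPKM or more it was -0.33 with the inhibitor and -0.45 after withdrawal. After scaling, the cycle genes had -0.40 with the inhibitor and -0.24 after withdrawal, and the 2354 genes -0.22 in both. The withdrawal median was thus close to that of other genes at such levels. Citrate synthase (Cs) averaged 13.7 ± 0.662 RPKM with the inhibitor and 29.3 ± 3.07 RPKM with DMSO (adjusted p = 1.2e-06), and 8.95 ± 0.308 RPKM after withdrawal and 23.9 ± 6.34 RPKM with HBEGF (adjusted p = 1.91e-06). Idh3a and Fh1, enzymes of the same cycle, were lower with the inhibitor: Idh3a averaged 1.97 ± 0.421 RPKM with the inhibitor and 5.21 ± 0.370 RPKM with DMSO, and Fh1 1.0 ± 0.0985 RPKM with the inhibitor and 3.01 ± 0.180 RPKM with DMSO (adjusted p = 4.2e-06 and 4.93e-07). On day 14 against day 2 the cycle had 2 genes higher and 2 lower, or 4 and 1 after scaling.

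In the pentose phosphate pathway, which branches off glycolysis, 5 of 6 tested genes were lower with the EGFR inhibitor and 3 after HBEGF withdrawal, and 0 were higher. All genes tested had 22.2% lower with the inhibitor and 22.5% after withdrawal. After scaling, 4 of the 6 were lower with the inhibitor and 2 after withdrawal. Its entry enzyme G6pdx averaged 4.09 ± 0.114 RPKM with the inhibitor and 7.33 ± 0.592 RPKM with DMSO (adjusted p = 0.000105). On day 14 against day 2, 3 of the 6 were lower (2 after scaling), beside 17.6% of all genes, with G6pdx at 4.84 ± 0.522 RPKM on day 14 and 11.2 ± 0.354 RPKM on day 2 (adjusted p = 5.82e-06). Among 8 tested genes of pyruvate and lactate handling, 1 was higher and 3 lower with the inhibitor, and 1 was higher and 4 lower after withdrawal (1 and 3 with the inhibitor and 1 and 2 after withdrawal, once scaled). Dlat and Dld, the other catalytic parts of the pyruvate dehydrogenase complex, were lower with the inhibitor by 0.74 ± 0.09 and 0.70 ± 0.08 on the log2 scale (adjusted p = 5.31e-06 and 4.49e-06). Pdp1, the phosphatase that reverses the kinases, was higher: 9.07 ± 0.990 RPKM with the inhibitor and 1.98 ± 0.551 RPKM with DMSO (adjusted p = 1.85e-05). RNA of the kinases Pdk1, Pdk2 and Pdk4 and of this opposing phosphatase was thus higher in the same libraries.

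The remaining lists were mixed. Of 6 tested further glycolysis genes, 2 were higher and 1 lower with the EGFR inhibitor, and 1 was higher and 1 lower after HBEGF withdrawal. After scaling these were 2 and 1 in both. Aldoc, the aldolase that marks astrocytes, averaged 103 ± 1.90 RPKM with the inhibitor and 39.6 ± 7.13 RPKM with DMSO (adjusted p = 1.09e-05), and Eno3, the muscle enolase, 1.55 ± 0.327 RPKM with the inhibitor and 0.532 ± 0.152 RPKM with DMSO (adjusted p = 0.00074). Of 10 tested further glycogen genes, 3 were higher and 1 lower with the inhibitor, and 1 was higher and 4 lower after withdrawal. After scaling these were 5 and 0 with the inhibitor and 1 and 1 after withdrawal. Ppp1r3c, which targets a phosphatase to glycogen, was higher on both later days, at 13.9 ± 4.29, 39.2 ± 1.42 and 32.3 ± 7.74 RPKM on days 2, 7 and 14 (adjusted p = 0.000842 for day 7 and 0.00213 for day 14, both against day 2). Of 17 tested hypoxia regulators and targets, 4 were higher and 6 lower with the inhibitor, and 3 were higher and 6 lower after withdrawal. After scaling these were 5 and 5 with the inhibitor and 6 and 5 after withdrawal. Of all genes, 16.3% were higher and 22.2% lower with the inhibitor and 10.0% and 22.5% after withdrawal. Hif1a averaged 1.52 ± 0.0719 RPKM with the inhibitor and 2.79 ± 0.0496 RPKM with DMSO (adjusted p = 1.47e-06), and 1.42 ± 0.0197 RPKM after withdrawal and 3.33 ± 0.101 RPKM with HBEGF (adjusted p = 6.39e-07). In none of the 6 lists did limma call a gene with the P53 inhibitor or on day 14 against day 7, where 0 to 6 genes of a list had an unadjusted p below 0.05. Over all 13848 genes, 1128 had such a p with the P53 inhibitor and 1483 on day 14 against day 7. Voom without the filter called 1 TCA cycle gene higher and 1 lower with the P53 inhibitor.

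Several of these values rest on uncertain read assignment. Near copies of at least 95% identity held 6677 reads beside 44063 in Pkm, 6876 beside 18937 in Ldhb, 9028 beside 20377 in Gpi1 and 1133 beside 47460 in Ldha, over all libraries. With the copies added, the log2 ratio of mean depth-scaled reads between EGFR inhibitor and DMSO was -2.48 for Ldha, against -2.52 without them, -1.60 for Pkm both ways, and 0.72 for Ldhb against 0.69. For Gapdh it was -0.52 with copies and -0.59 without. Exons of Hk1, Gpi1, Pfkm, Pfkp, Pfkfb2, Aldoa, Tpi1, Gapdh, Pkm, Slc16a7, Slc2a1, Pdha1, Gys1 and Mpc1 overlap those of another gene in the annotation. The sources used here do not say whether counting used strand, so reads of such neighbours cannot be told apart.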

How the data were processed

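RNA was sequenced in 25 libraries of cultured mouse astrocytes. Per the submitters' processing notes, the authors' tools included STAR, HTSeq and limma, with GRCm38. The sources used here do not give versions, settings or strandedness. The deposited table holds RPKM. Its values fit division by the whole gene span (end minus start): RPKM times span in kilobases summed to 998937 to 1002237 per library, against 377053 to 519436 with GENCODE M21 exon lengths. Reads recovered from it were whole for 99.3 to 99.4% of values up to 20 reads (tolerance 0.1).

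The 35 genes and all lists were chosen with earlier results of these data known. Each of 9 groups had its mean in 1 limma fit (3.58.1, R 4.3.3) of log2(RPKM + 1), with trend and robust empirical Bayes, 16 residual degrees of freedom and Benjamini-Hochberg adjustment over 13848 genes. Every p-value in the text comes from limma, or from voom with limma where named. Values in every library were given for genes called with a log2 change of at least 1 in size and for the 3 called with the smallest adjusted p in each comparison, and for others where their role needed it. Genes named from a list were among the 3 called with the smallest adjusted p in a comparison. Python 3.11.15, pandas 2.3.3, numpy 2.4.6, matplotlib 3.10.9 and blastn 2.17.0 served for tables, figures and near copies (at least 300 bases). The limma fit was tested on simulated data. The results were recomputed with 2 scalings, a pseudocount of 0.1, a filter of 5 RPKM or none, voom on recovered reads, separate fits, a replicate block and leaving out each library. Promoter bases and starts are RefSeq's. In 36 of 50 windows the bases after the start were found in a GENCODE transcript of the gene, and in 0 as the reverse complement.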

Additional observations from a re-analysis of the deposited data

How the results depend on the processing

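Of 61 calls (a gene in a comparison), none changed direction under any alternative. With voom and no filter, added after seeing the data, 3 calls were lost. Lost were 7 after median-of-ratios scaling, 7 after scaling without mitochondrial genes, 7 with no filter, 2 with a pseudocount of 0.1 and 1 with voom on recovered reads. With a filter of 5 RPKM 13 genes were tested, and the EGFR inhibitor gave 5 higher and 7 lower, HBEGF withdrawal 5 higher and 6 lower, day 14 against day 2 4 higher and 3 lower, and day 7 against day 2 3 higher and 3 lower. With each experiment fitted alone, 34 of the 61 calls were lost. HBEGF withdrawal gave 0 higher and 0 lower, day 14 against day 2 gave 3 and 3, and day 7 against day 2 gave 0 and 1. Over all 13848 genes, the EGFR inhibitor fitted alone gave 2051 higher and 2958 lower, and day 7 against day 2 gave 70 and 120. The day and withdrawal calls thus lean on the spread of the other groups. Leaving out each library in turn gave 6 to 9 higher and 5 to 7 lower after HBEGF withdrawal, 3 to 5 higher and 3 to 8 lower on day 7 against day 2, 5 higher and 4 to 9 lower on day 14 against day 2, and 9 to 10 higher and 9 lower with the EGFR inhibitor. In 332 such refits of a call, 56 lost it. Where 1 library was left in a group, it was taken to vary like the other groups. Same-numbered samples showed little shared deviation from their group means (correlations of -0.095 to 0.118). With 2 or 3 libraries in a group, this cannot show whether the numbers pair them. With a replicate block, 9 were higher and 9 lower with the EGFR inhibitor, 8 and 7 after withdrawal, 5 and 6 on day 14 and 4 and 6 on day 7 against day 2, and 7 of the 61 calls were lost. Depth limits what can be said of Pgam1, Slc16a3, Mpc1 and Pygm, whose lowest libraries held 6, 1, 3 and 0 reads.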

Other observations

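Pygm, the muscle form of glycogen phosphorylase, had few reads. It was counted with 44, 61 and 25 reads with the P53 inhibitor, against 9, 11 and 15 with DMSO (voom log2 change 1.30 ± 0.60, adjusted p = 0.547). With the EGFR inhibitor it had 5, 7 and 4 reads, against 18, 18 and 36 with DMSO (adjusted p = 0.0777). On day 2 it ranged between replicates from 0 to 50 reads.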
